A study of Mus musculus with 16 samples.

Results

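The NMDA receptor subunit family was followed in the brains of adolescent mice that drank nicotine, ethanol, both or neither. The family has 7 genes, Grin1, Grin2a, Grin2b, Grin2c, Grin2d, Grin3a and Grin3b, and its members were taken as the rows that carry these symbols. All 7 were found, 1 row each, among the 24060 gene names of the table of read counts and among the 23989 gene names of the table of FPKM, a level scaled to the length of the transcript and to the number of fragments mapped. The rule used gene names alone, but the family was picked with earlier results of these data known.

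NMDA receptors are glutamate-gated cation channels of excitatory synapses that open when glutamate and a co-agonist, glycine or D-serine, are both bound and the membrane is depolarised enough to release a magnesium block. Each receptor needs GluN1, the product of Grin1, together with GluN2 subunits (Grin2a to Grin2d), which bind glutamate and set how long the channel stays open, or with GluN3 subunits (Grin3a and Grin3b), which bind glycine and lower calcium entry. In the forebrain GluN2B dominates early in life and GluN2A is added as circuits mature, GluN2C is the typical subunit of cerebellar granule neurons, and ethanol is a well known inhibitor of the channel.

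Whole brains with the cerebellum attached were collected on postnatal day 45 from 16 female mice of the inbred strain C57BL/6J, and each brain gave 1 RNA-seq library. The WW group drank water throughout, and the NW group had nicotine at 200 µg/ml as its fluid for 22 h per day over 10 days, with water in the daily drinking session. The Water-Ethanol group drank water apart from sessions with 20% v/v ethanol on the last 4 days, and the NE group received both the nicotine and the ethanol. There were 4 mice in each group. Sessions lasted 2 h, or 4 h on the last day, after which the brains were taken, and intake was voluntary, so each mouse set its own dose. Mice are named here by their group and the number in their label.

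Libraries held 27100352 to 32880979 counted reads (median 29448284), and no pair of libraries was identical. All 6 pan-neuronal marker genes were detected in every group. WW replicate 21 and NW replicate 10 stood apart, with cerebellar granule neuron marker scores of -1.28 and -0.92, where a score is the mean of 8 centred log2 values and the other 14 mice lay between 0.03 and 0.24. Granule neuron genes such as Gabra6, a GABA receptor subunit gene, were low in both, at 1066 and 1649 normalized counts against 3410 to 4489 in the rest. Olfactory bulb genes were low in another 3 mice, with scores of -0.78 in Water-Ethanol replicate 15, -0.65 in NE replicate 4 and -0.48 in NW replicate 11, against 0.18 to 0.37 in WW and -0.17 to 0.29 in the other Water-Ethanol mice. Pituitary genes summed to 414.8 normalized counts in 1 NW mouse and to at most 60.5 in any WW, Water-Ethanol or NE mouse. NW replicate 10, named above for its granule neuron score, had the highest pituitary score, 3.18, and the lowest choroid plexus score, -0.48. In whole tissue, fewer cells of a type and less RNA per cell cannot be told apart.

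Grin1 was by far the most abundant subunit transcript per unit of length, and the GluN2 genes followed (plot of values by mouse). Over the 16 mice the median was 101.7 FPKM for Grin1, 18.1 for Grin2c, 16.1 for Grin2b, 15.1 for Grin2a, 9.75 for Grin3a, 4.26 for Grin2d and 0.404 for Grin3b. The ranges of Grin2a, Grin2b and Grin2c overlapped, with Grin2c above Grin2b in 11 of 16 mice and Grin2b above Grin2a in 14. Every other step in this order held in all 16 mice, and counts per kilobase of exon gave the same order of medians. The FPKM of the 4 GluN2 genes added up to 0.520 ± 0.0491 of that of Grin1 in the WW group (SD over 4 mice). The same sum was 0.496 ± 0.0165 of Grin1 in Water-Ethanol, 0.495 ± 0.0415 in NW and 0.538 ± 0.0141 in NE. The NE mice (0.519 to 0.552) were just above the Water-Ethanol mice (0.480 to 0.517), and every other pair of groups overlapped. Differences of this sum, which contains Grin2a and Grin2b, were not tested.

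**Figure D1:**
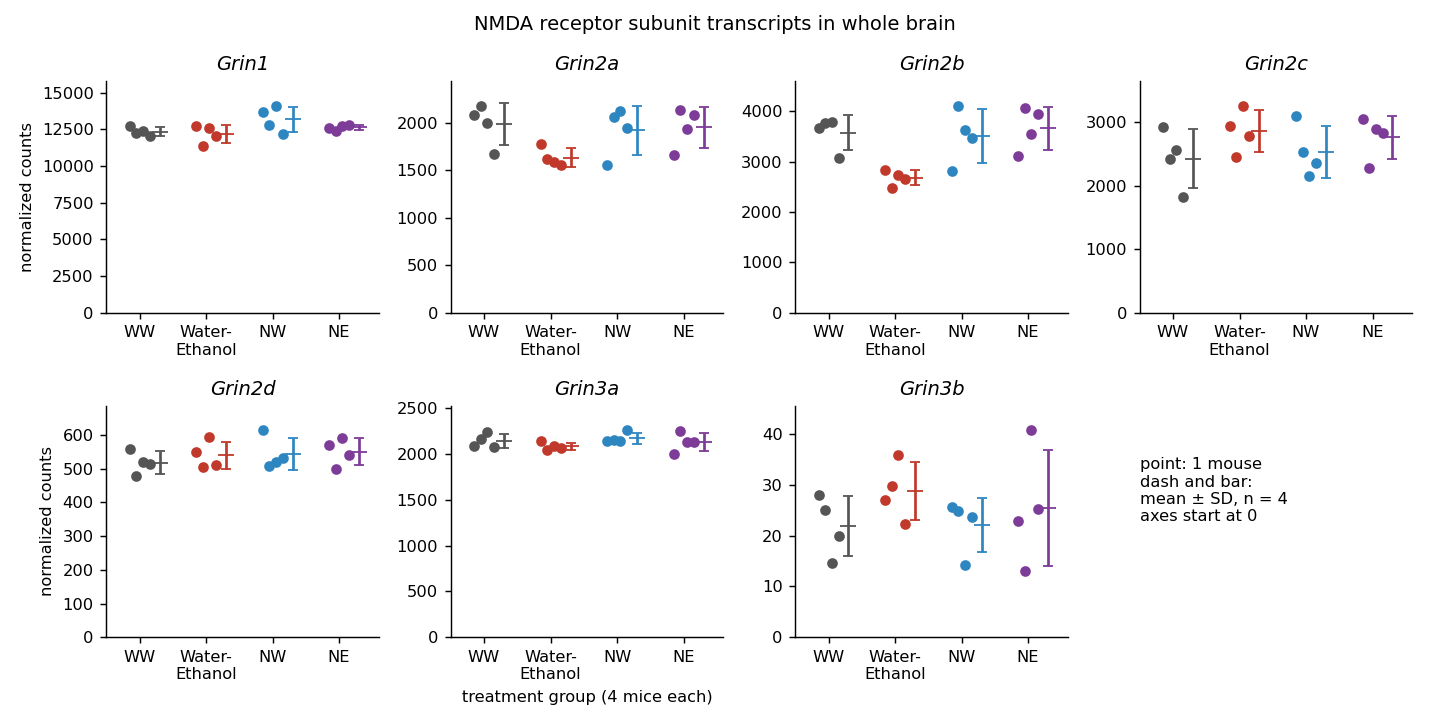
Normalized read counts (vertical axis, from 0, with a scale of its own for each gene) of the 7 NMDA receptor subunit genes in WW, Water-Ethanol, NW and NE mice. Each point is 1 mouse, and the dash and bar are the mean ± SD of 4 mice. The 4 Water-Ethanol mice, at 2481 to 2838, lie below all 4 WW mice for Grin2b, and Grin1 stays between 11360 and 14093 in every mouse.

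Ethanol drinking alone went with less Grin2b RNA. Grin2b, which encodes GluN2B and lies on chromosome 6 from 135729805 to 136173511 (GRCm38, minus strand, 15 exons), had 3673, 3778, 3782 and 3064 normalized counts (reads scaled for library size) in WW replicates 18, 19, 20 and 21. Water-Ethanol replicates 13, 14, 15 and 16 had 2838, 2481, 2745 and 2663. All 4 Water-Ethanol mice were below the lowest WW mouse, replicate 21, which itself stood well below the other WW mice. The Water-Ethanol mean was 2682 ± 152 against 3574 ± 344 in WW (SD, n = 4 each), so that Grin2b decreased by 25.0% (-0.41 on the log2 scale, standard error, SE, 0.0644, adjusted p = 0.0357 by the quasi-likelihood test of edgeR with Benjamini-Hochberg adjustment). It was the only one of the 7 subunit genes called at an adjusted p under 0.05, against 0.457% of the 15322 genes tested, or 0.183% of them called as lower. Groups that did not overlap in this direction were found for 5.22% of all genes tested.

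Grin2a did not pass the threshold. This gene, for GluN2A, lies on chromosome 16 from 9577710 to 9992533 (minus strand, 12 exons) and had 2083, 2178, 2000 and 1672 normalized counts in WW replicates 18 to 21. In Water-Ethanol replicates 13 to 16 it had 1778, 1613, 1587 and 1552. The groups overlapped through WW replicate 21 and Water-Ethanol replicate 13, with the other 3 Water-Ethanol mice below every WW mouse. The log2 difference of Water-Ethanol from WW was -0.28 (SE 0.0725, unadjusted p = 0.0021, adjusted p = 0.085, edgeR). Grin2a and Grin2b were the 2 subunit genes with an unadjusted p under 0.05, against 19.4% of all genes tested.

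Both values leaned on single mice and on the test. The log2 fold change of Grin2b stayed between -0.48 and -0.38 whichever mouse was left out, but the adjusted p (edgeR) was over 0.05 without WW replicate 19 (0.13), WW replicate 20 (0.123), Water-Ethanol replicate 13 (0.0878), Water-Ethanol replicate 14 (0.0549), Water-Ethanol replicate 15 (0.0947) or Water-Ethanol replicate 16 (0.0954). Those fits called at most 1 gene of all tested, where the main fit called 70 of 15322. Without WW replicate 21, both genes were called, Grin2b at -0.48 (adjusted p = 0.0007) and Grin2a at -0.35 (adjusted p = 0.0097, edgeR). That fit called 797 of 15410 genes tested. DESeq2 and edgeR's likelihood-ratio test called both genes, whereas limma on log2(FPKM + 1) called neither (adjusted p = 0.114 for Grin2b and 0.167 for Grin2a), and in a fit of all 16 mice the adjusted p of Grin2b was 0.0835 (edgeR). Of all genes, DESeq2 called 605 of 19876 and the likelihood-ratio test 620 of 15322. Limma on log2(FPKM + 1) called 0 of 16459, and the fit of all 16 mice 28 of 15591.

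Markers of forebrain excitatory neurons (Neurod6, Tbr1, Emx1 and Nrgn) were all 4 detected in every group. The list was cut from 6 genes to these 4 after its values had been seen, so its score is a description with no test of its own. Their summed normalized counts ran from 19520.3 to 21881 in Water-Ethanol and from 21435 to 26824 in WW, and so overlapped. Their score ran from -0.16 to -0.08 in Water-Ethanol and from -0.02 to 0.21 in WW, a difference of -0.19 with no overlap. Over the 16 mice this score had a Pearson's r of 0.57 with log2 CPM (counts scaled to library size) of Grin2b and of 0.55 with that of Grin2a, and of 0.78 and 0.75 without WW replicate 21 and NW replicate 10, where the points share library and treatment group. The link was not particular to this list. For the pan-neuronal score r was 0.58 with Grin2b and 0.77 with Grin2a over the 16 mice, and 0.58 and 0.77 without those mice. With the forebrain score as a covariate Grin2b was at -0.64 (adjusted p = 0.00827) and Grin2a at -0.55 (adjusted p = 0.017, edgeR), in a fit that called 63 of 15322 genes. Without WW replicate 21, which had the highest WW score and the lowest WW count of Grin2b, the same fit gave -0.54 (adjusted p = 0.145) and -0.49 (adjusted p = 0.27, edgeR) and called neither gene. It then called 1 of 15410 genes tested. Since the score did not overlap between the groups, lower forebrain marker RNA and ethanol drinking cannot be told apart in these fits. With the olfactory bulb score as a covariate Grin2b was at -0.42 and no longer called (adjusted p = 0.193, edgeR), in a fit that called 0 of 15322 genes. The pan-neuronal score differed by -0.05 (exact permutation test, two-sided, p = 0.0571, Benjamini-Hochberg value over 6 score comparisons 0.343), and the granule neuron score by 0.35 (p = 0.686 in the same exact permutation test, with groups that overlapped). With the granule neuron score as a covariate Grin2b was at -0.48 (adjusted p = 0.0003) and Grin2a at -0.35 (adjusted p = 0.0095, edgeR), in a fit that called 733 of 15322 genes. In these groups only WW replicate 21 lay far from the others in this score. The fit was therefore close to that without this mouse (-0.48 and -0.35) and is not a separate check. Grin2a and Grin2b are long genes, spanning 414824 and 443707 bases, with a transcript GC content of 52.5% and 49.5%. After a correction for GC content the log2 fold change of Grin2b was -0.41 (adjusted p = 0.0367), and after one for gene span -0.37 (adjusted p = 0.0333, edgeR). These fits called 41 and 58 of 15322 genes.

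**Figure D2:**
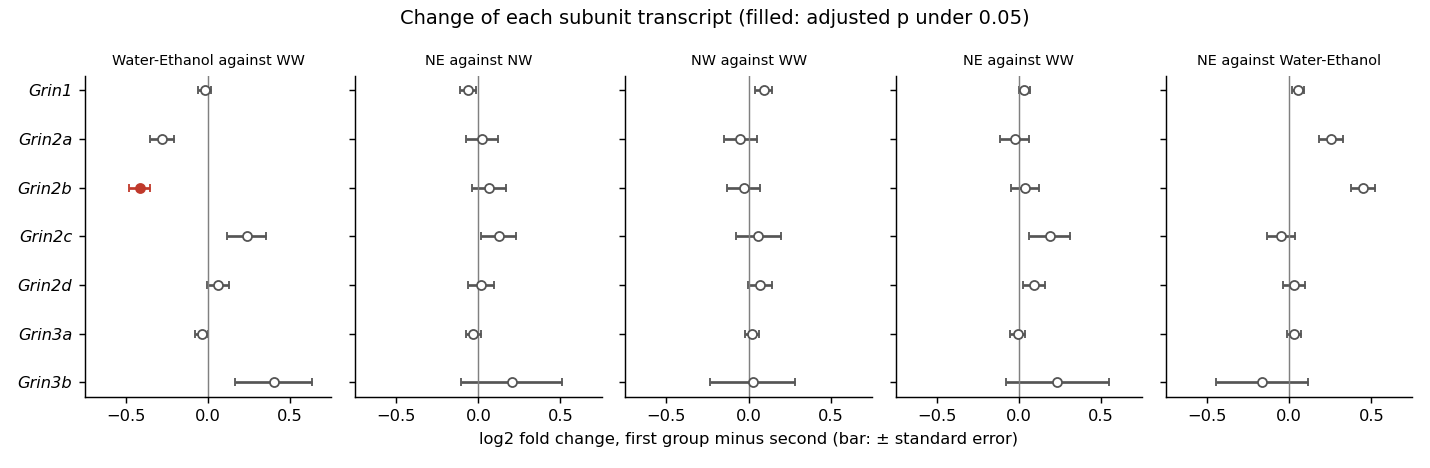
Log2 fold change (horizontal axis, first group minus second, bars are ± 1 standard error, SE) of the 7 subunit genes in 5 comparisons by edgeR's quasi-likelihood test, 4 mice per group. The filled point, Grin2b in Water-Ethanol against WW at -0.41, is the only one with an adjusted p under 0.05, and both Grin2a and Grin2b lie near 0 in NE against NW (0.02 and 0.06).

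In the mice that also had nicotine, no ethanol difference of Grin2b was detected. NE replicates 2, 3, 4 and 5 had 3114, 4059, 3549 and 3945 normalized counts of Grin2b, and NW replicates 7, 8, 10 and 11 had 2820, 4109, 3621 and 3474. The groups overlapped throughout, with 1 low mouse in each, NE replicate 2 and NW replicate 7. The log2 fold change of NE against NW was 0.06 (SE 0.104, adjusted p = 0.836) for Grin2b and 0.02 (SE 0.0965, adjusted p = 0.947) for Grin2a by edgeR's quasi-likelihood test. Without NW replicate 7 these values were -0.03 and -0.07. None of the 7 subunit genes was called in this comparison, nor had any an unadjusted p under 0.05 (edgeR), and DESeq2 also called 0. Of all 15360 genes tested, edgeR called 0%, and 11.9% had an unadjusted p under 0.05, while DESeq2 called 92 of 19842.

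Set directly against Water-Ethanol, the NE mice had more Grin2b in every mouse. The lowest NE mouse (3114) was above the highest Water-Ethanol mouse (2838), as for 2.06% of all genes, with a log2 fold change of 0.45 (SE 0.0713), which did not survive adjustment over 15318 genes (unadjusted p = 1.95e-05, adjusted p = 0.298, edgeR's quasi-likelihood test). For Grin2a the difference was 0.25 (SE 0.0708, adjusted p = 0.833, edgeR). In this comparison 0% of all genes were called and 2 subunit genes had an unadjusted p under 0.05, against 5.79% of all genes. DESeq2, edgeR's likelihood-ratio test, the edgeR fit with no filter on low counts and the fit without NE replicate 2 (0.52, adjusted p = 0.0027) called Grin2b. These fits called 1 or 2 of all genes tested. The forebrain excitatory neuron score was higher in NE than in Water-Ethanol by 0.11, with groups that overlapped, and with it as a covariate the Grin2b difference was 0.33 (adjusted p = 0.794, edgeR). The paper reports that mice with nicotine drank more ethanol on the last day and had higher blood ethanol than those without. It found no significant difference in intake on the earlier ethanol days, and it does not give the intake of the sequenced mice on their own. Nicotine and any higher ethanol intake of the NE mice therefore cannot be told apart in this comparison or in the interaction.

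Whether the ethanol difference itself depended on nicotine was tested as an interaction over all 16 mice. The ethanol difference of Grin2b was 0.48 higher on the log2 scale with nicotine than without (SE 0.139, unadjusted p = 0.0025, adjusted p = 0.651, edgeR's quasi-likelihood test), and that of Grin2a 0.31 higher (SE 0.136, unadjusted p = 0.0352, adjusted p = 0.713). Neither passed adjustment, and 0% of the 15591 genes tested were called. An unadjusted p under 0.05 was found for 2 of the 7 subunit genes and for 6.75% of all genes. The other 5 subunit genes gave interaction values from -0.19 to 0.02, with unadjusted p-values from 0.56 to 0.79 (edgeR).

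Averaged over both drinking backgrounds, ethanol went with a Grin2b log2 fold change of -0.18 (SE 0.0693, unadjusted p = 0.0204, adjusted p = 0.141) and with -0.13 for Grin2a (SE 0.0678, adjusted p = 0.26, edgeR). None of the 7 subunit genes was called by edgeR's quasi-likelihood test, although the same fit called 4.5% of all genes, and 1 had an unadjusted p under 0.05, as had 22.9% of all genes. Grin2b passed only in the fit without NW replicate 7, the NW mouse with the lowest count, at -0.22 (adjusted p = 0.0408, edgeR). That fit called 858 of 15669 genes tested.

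With nicotine alone, no difference of a subunit gene was detected. Between NW and WW the 7 log2 fold changes lay between -0.05 and 0.09, at -0.03 for Grin2b (SE 0.101) and -0.05 for Grin2a (SE 0.0996). Without WW replicate 21 and NW replicate 10 they were -0.11 (adjusted p = 0.702) and -0.17 (adjusted p = 0.508, edgeR). By edgeR's quasi-likelihood test no subunit gene was called or had an unadjusted p under 0.05, and DESeq2 called 0 of them. Of all genes, edgeR called 0% of the 15343 tested, with 8.44% at an unadjusted p under 0.05, and DESeq2 called 121 of 19878. Between NE and WW, which share the WW mice with these comparisons, Grin2b was at 0.04 (SE 0.0851) and Grin2a at -0.03 (SE 0.0882), or -0.03 and -0.10 without WW replicate 21, and again 0 subunit genes were called or had an unadjusted p under 0.05 (edgeR), against 0.313% of all genes called and 17.5% at an unadjusted p under 0.05. DESeq2 called none of the 7 there either, and 507 of 19899 genes in all. Over all mice the nicotine effect was 0.21 for Grin2b (SE 0.0693, unadjusted p = 0.007, adjusted p = 0.292) and 0.07 for Grin1 (SE 0.0325, unadjusted p = 0.0381, adjusted p = 0.451, edgeR), the 2 subunit genes with an unadjusted p under 0.05, where 10.3% of all genes had one and 0% were called.

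Grin2a and Grin2b varied together from mouse to mouse, also within groups. With group means removed, Pearson's r over the 16 mice was 0.908 (permutation p = 0.0008, Benjamini-Hochberg value over the 21 pairs of subunit genes 0.017) and Spearman's rho 0.812 (permutation p = 0.0013, Benjamini-Hochberg value 0.0271). Without the 2 mice farthest from the median of Grin2a r was 0.818, and without WW replicate 21 and NW replicate 10 it was 0.907. In WW, NW and NE the mouse with the lowest Grin2b also had the lowest Grin2a, WW replicate 21 at 1672 and 3064, NW replicate 7 at 1555 and 2820 and NE replicate 2 at 1659 and 3114 normalized counts of Grin2a and Grin2b. In Water-Ethanol the lowest Grin2b was in replicate 14, whose Grin2a was the second highest of its group. The forebrain excitatory neuron score of NW replicate 7, -0.15, was the lowest of its group and that of NE replicate 2, -0.09, the lowest of NE, whereas WW replicate 21 had one of the highest, 0.21.

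**Figure D3:**
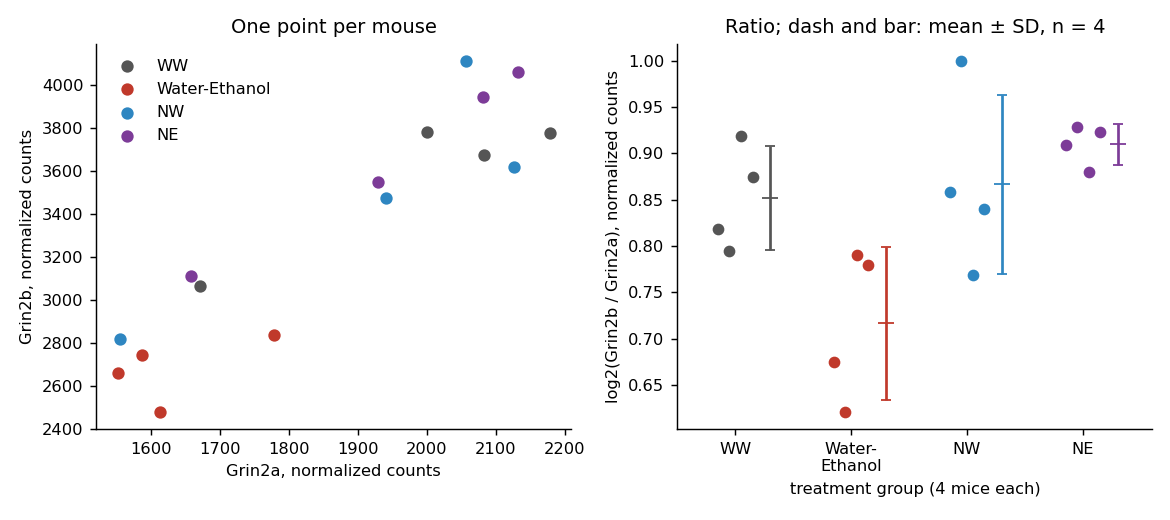
Left, normalized counts of Grin2b (vertical axis) against those of Grin2a (horizontal axis), 1 point per mouse, with both axes cut above 0. Right, log2 of the ratio of Grin2b to Grin2a counts by group, with points for mice and the mean ± SD of 4 mice, where Water-Ethanol runs from 0.62 to 0.79, below every WW mouse (0.79 to 0.92) and every NE mouse (0.88 to 0.93).

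The ratio of Grin2b to Grin2a was lowest in Water-Ethanol. The log2 ratio of Grin2b to Grin2a counts was 0.82, 0.79, 0.92 and 0.87 in WW replicates 18 to 21 and 0.67, 0.62, 0.79 and 0.78 in Water-Ethanol replicates 13 to 16. Every Water-Ethanol mouse lay below every WW mouse, though Water-Ethanol replicate 15 (0.790) and WW replicate 19 (0.795) were nearly level. The means differed by -0.14 (exact permutation test, two-sided, p = 0.0286, Benjamini-Hochberg value over 5 comparisons 0.0714). In NE the ratio was 0.91, 0.93, 0.88 and 0.92, above all Water-Ethanol mice by 0.19 on average (exact permutation test, two-sided, p = 0.0286, Benjamini-Hochberg value 0.0714). The NW mice ranged from 0.77 to 1.00 and overlapped WW (difference 0.01, exact permutation test, two-sided, p = 0.83), as did NE (0.06, p = 0.114 in the same permutation test), and NE overlapped NW (0.04, p = 0.457 in the same test). A ratio of 2 genes in the same library does not depend on library scaling. No comparison of the ratio passed adjustment over the 5. With groups of this size the exact permutation test cannot go below p = 0.0286. Water-Ethanol against WW and NE against Water-Ethanol were both at this floor. With only these at the floor, their Benjamini-Hochberg value could not be lower than 0.0714. The adjustment therefore cannot decide whether the ratio differed, and no conclusion is drawn from it.

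Grin2c, the granule neuron subunit gene on chromosome 11 from 115249169 to 115267243 (minus strand, 15 exons), was not called in any comparison. It had 2924, 2416, 2561 and 1815 normalized counts in WW replicates 18 to 21 and 2940, 2459, 3259 and 2791 in Water-Ethanol replicates 13 to 16. The groups overlapped, and the log2 fold change was 0.24 (SE 0.118, adjusted p = 0.296, edgeR). WW replicate 21, the mouse with the lowest granule neuron score, was also the lowest of all 16 for Grin2c, and NW replicate 10, the other such mouse, was the lowest of its group at 2149. Over the 16 mice Pearson's r of Grin2c was 0.75 with the granule neuron score and -0.86 with the forebrain score. Without these mice it was 0.25 and -0.77. These links were not particular to the 2 lists. Over the 16 mice r was -0.84 with the microglia score, -0.59 with the pan-neuronal score and 0.69 with the Purkinje cell score. Without WW replicate 21 and NW replicate 10 these were -0.72, -0.74 and -0.37. Without WW replicate 21 the Water-Ethanol difference was 0.12, and with the forebrain excitatory neuron score as a covariate it was -0.21 (adjusted p = 0.502, edgeR). In NE against NW the value was 0.12 (SE 0.108, adjusted p = 0.681), and over all mice ethanol gave 0.18 (SE 0.0899, adjusted p = 0.238, edgeR), -0.04 with that covariate (adjusted p = 0.75) and 0.087 without WW replicate 21 and NW replicate 10 (adjusted p = 0.485, edgeR).

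**Figure D4:**
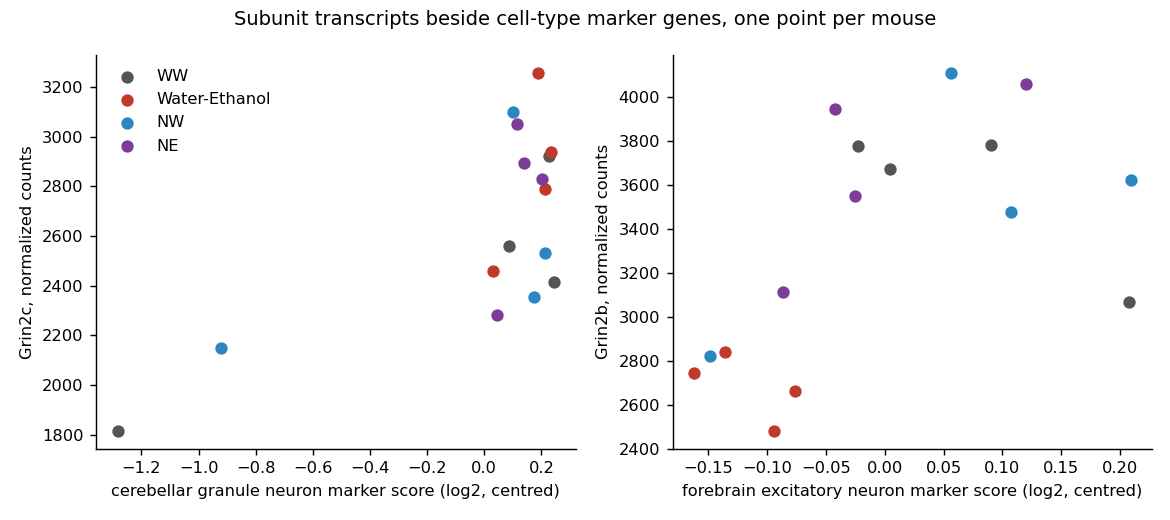
Left, normalized counts of Grin2c against the cerebellar granule neuron marker score, and right, Grin2b against the forebrain excitatory neuron score, 1 point per mouse, coloured by group, with vertical axes cut above 0. WW replicate 21 and NW replicate 10 sit apart on the left at scores of -1.28 and -0.92, and the Water-Ethanol mice sit together on the right at low scores (-0.16 to -0.08) and 2481 to 2838 counts of Grin2b.

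As a share of the summed FPKM of the 4 GluN2 genes, Grin2b made up 31.3% ± 1.29 in WW, 25.3% ± 0.649 in Water-Ethanol, 30.6% ± 3.48 in NW and 30.5% ± 2.81 in NE (SD, n = 4 mice each). The Water-Ethanol mice lay between 24.4% and 25.9%, below all WW and NE mice, and NW replicate 7 at 25.6% was the only mouse of another group in that range. Grin2c took 39.5% ± 2.05 in Water-Ethanol (37.3% to 42.2%) and 31.1% ± 2.64 in WW (28.2% to 34.4%), while in NW it ran from 28.0% to 40.8% and in NE from 28.2% to 39.1%. Shares add up to a whole, so a lower share of 1 gene raises the others. The share of Grin2a was 26.3% ± 1.79 in Water-Ethanol and 29.6% ± 1.23 in WW, and that of Grin2d 8.92% ± 0.270 and 8.04% ± 1.13.

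**Figure D5:**
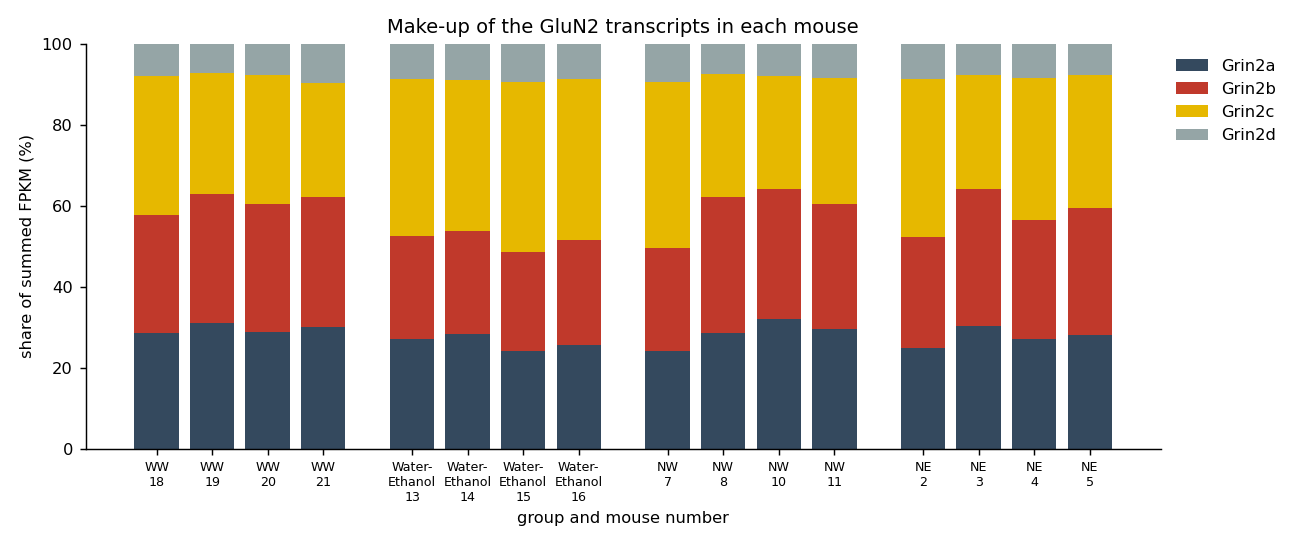
Share (percent, vertical axis from 0 to 100) of Grin2a, Grin2b, Grin2c and Grin2d in their summed FPKM, 1 stacked bar per mouse, ordered by group and labelled by mouse number. The Grin2b segment is 24.4% to 25.9% high in the 4 Water-Ethanol mice and 29.3% to 32.1% in the 4 WW mice.

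Grin2d, which encodes GluN2D and lies on chromosome 7 from 45832483 to 45866681 (minus strand, 12 exons), stayed between 477 and 613 normalized counts in all mice. Its Water-Ethanol difference was 0.06 (SE 0.0683, adjusted p = 0.658, edgeR). With group means removed it moved with Grin2c (Spearman's rho 0.788, permutation p = 0.0035, Benjamini-Hochberg value 0.0368), while the Pearson value did not pass adjustment over the 21 pairs (r = 0.712, permutation p = 0.0068, Benjamini-Hochberg value 0.0712). Without the 2 mice farthest from the median of Grin2c r was 0.804. No other pair passed, apart from Grin2a with Grin2b.

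Promoters are shown for Grin2c and Grin2d, since these genes varied together. Of the 7 genes, 4 matched the RefSeq promoter sequences for GRCm38.p6 (Grin1, Grin2c, Grin2d and Grin3b), which run from 250 bases before the start of the gene to 50 after it. Capitals mark GGGCGG, the core of the GC box, on either strand, with overlapping matches counted separately. TGACGTCA, the cAMP response element, and CACGTG, an E-box, were searched on both strands as well. The windows are chr11:115267194-115267493 and chr7:45866632-45866931, both on the minus strand.
Grin2c: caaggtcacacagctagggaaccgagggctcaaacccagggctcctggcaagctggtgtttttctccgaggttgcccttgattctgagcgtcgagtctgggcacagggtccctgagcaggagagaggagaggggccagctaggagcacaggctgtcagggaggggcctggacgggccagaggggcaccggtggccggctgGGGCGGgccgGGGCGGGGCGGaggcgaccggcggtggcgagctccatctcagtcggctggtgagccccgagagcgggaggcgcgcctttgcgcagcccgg
Grin2d: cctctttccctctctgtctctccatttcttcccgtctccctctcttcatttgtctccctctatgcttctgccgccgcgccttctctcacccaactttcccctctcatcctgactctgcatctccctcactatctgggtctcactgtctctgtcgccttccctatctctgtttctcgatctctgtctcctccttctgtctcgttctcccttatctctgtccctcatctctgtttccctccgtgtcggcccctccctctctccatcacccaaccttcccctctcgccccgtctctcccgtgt
The Grin2c window held 3 matches to GGGCGG and a GC content of 70%, and the Grin2d window held none of the 3 motifs at 56.0% GC. Among 32851 promoters of this length 35.7% held GGGCGG, 1.79% TGACGTCA and 7.15% CACGTG, and the median GC content was 52.7%. The windows of Grin1 and Grin3b held 60.7% and 48.3% GC, with 1 GGGCGG and 2 CACGTG in Grin1 and none of the motifs in Grin3b.

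Grin1, the obligatory subunit gene on chromosome 2 from 25291177 to 25319187 (minus strand, 21 exons), showed no called difference in any comparison. Its normalized counts averaged 12342 ± 278 in WW, 12173 ± 605 in Water-Ethanol, 13170 ± 870 in NW and 12633 ± 181 in NE (SD, n = 4 mice each), and every group overlapped every other. Water-Ethanol differed from WW by -0.02 (SE 0.0404, adjusted p = 0.825, edgeR), so the fall of Grin2b in Water-Ethanol was not accompanied by a called change of Grin1. Exons of Grin1 share 1307 bases with Grin1os on the opposite strand. Grin1os had 5 to 37 counts per mouse, but 8.47 to 13.2 FPKM, and how the tables divided reads of the shared bases is not given in the sources used here.

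The GluN3 genes showed no call in any comparison. Grin3a, for GluN3A, on chromosome 4 from 49661611 to 49845769 (minus strand, 9 exons), lay within 2005 to 2258 normalized counts in all 16 mice, with a Water-Ethanol difference of -0.04 (SE 0.0371, adjusted p = 0.598, edgeR). NW replicate 11 had 2258 and stood apart from 2138 to 2150 in the other NW mice. Grin3b, for GluN3B, on chromosome 10 from 79970724 to 79977190 (plus strand, 9 exons), was close to the limit of what these libraries measure, at 13.1 to 40.7 normalized counts. Its Water-Ethanol difference of 0.40 had a SE of 0.235 (adjusted p = 0.374, edgeR), and 71 of its exon bases overlap the far more abundant Tmem259 on the opposite strand (2155 to 2886 counts).

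Transcripts that followed the subunit genes most closely over the 16 mice were looked up among the 15590 other genes tested, by Pearson's r of log2 CPM, as a description. For Grin2b they included Grin2a (0.92) and Tmem178b (0.92), and for Grin2a the potassium channel gene Kcnh7 (0.95), Grin2b (0.92) and the protein kinase C gene Prkce (0.91). Grin2c was most like Fnbp1 (0.96), the cell adhesion gene Cntn2 (0.95) and Cnpy1 (0.94). For Grin1 they were the adaptor complex gene Ap3d1 (0.90), the cap methyltransferase gene Cmtr1 (0.87) and Arhgef2 (0.85). The points share library, tissue composition and treatment group.

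The proteins that anchor, modify, transport and supply NMDA receptors are encoded by genes of which 44 were listed, and all 44 were tested. In Water-Ethanol against WW none was called by edgeR's quasi-likelihood test, while 7 were lower and 1 higher at an unadjusted p under 0.05, and the median log2 fold change was -0.03 against 0.00 over all genes tested. Among all genes, 9.05% were lower and 10.3% higher at that level. Of 14 scaffold genes, Dlg4, for PSD-95, was at -0.07 (SE 0.0417) and Dlg2 at -0.06 (SE 0.0322), both with overlapping groups. Dlgap1 was at -0.11 (SE 0.0382, adjusted p = 0.152, edgeR), with every Water-Ethanol mouse below every WW mouse, as for 5.22% of all genes tested. Of 16 kinase, phosphatase and signalling genes, Camk2a, for the synaptic kinase CaMKII alpha, was at -0.10 (SE 0.0586) with overlapping groups. Ppp3r1, the regulatory subunit of calcineurin, was lower in each Water-Ethanol mouse than in the whole WW group, with 27440 ± 1491 normalized counts against 30360 ± 816 (SD, n = 4 each), at -0.15 (SE 0.0424, adjusted p = 0.105, edgeR). It was as low with nicotine, at 27531 ± 3601 in NW and 27719 ± 1434 in NE. Against WW these groups were at -0.14 (SE 0.0803), with overlap, and at -0.13 (SE 0.0421), with no overlap.

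The 9 trafficking and auxiliary genes and the 5 genes of co-agonist supply gave no call in Water-Ethanol either. Apba1 was at -0.01 (SE 0.033) and Lin7a at 0.06 (SE 0.0665), both of a complex that carries receptor vesicles. Neto1, for an auxiliary protein of glutamate receptors, had the lowest p of the 44 at -0.16 (SE 0.0392, unadjusted p = 0.00114, adjusted p = 0.0746, edgeR), with no overlap of the groups. Against WW it was at -0.13 in NW (SE 0.0746) and -0.08 in NE (SE 0.0447), both with overlap. Srr, which makes D-serine, was lower in all 4 Water-Ethanol mice (2716 ± 111 against 2995 ± 86.8 normalized counts), at -0.14 (SE 0.0395, adjusted p = 0.0953, edgeR), and the glycine transporter gene Slc6a9 was at 0.04 (SE 0.0521). The lack of overlap seen for Neto1 and Srr was found in 5.22% of all genes tested.

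In NE against Water-Ethanol 0 of the 44 partner genes were called (edgeR), and 8 were higher and none lower at an unadjusted p under 0.05, where 3.19% of all genes were higher and 2.6% lower. Both comparisons contain the Water-Ethanol mice. The one partner gene called in any comparison was Shank2, a scaffold of the postsynaptic density, at 5983 ± 131 normalized counts in the NE mice against 5288 ± 28.5 in the WW mice (SD, n = 4 each), with no overlap, as for 5.38% of all genes in this direction. That is a log2 fold change of 0.18 (SE 0.0312, adjusted p = 0.0453, edgeR's quasi-likelihood test), against 0.313% of all genes called. Of 21 alternatives 8 called Shank2, among them 1 of the 8 fits without 1 mouse, and its log2 fold change stayed between 0.12 and 0.19. A correction for GC content took it to 0.12 (adjusted p = 0.15) and the olfactory bulb score as a covariate to 0.16 (adjusted p = 0.525). Of the fits without 1 mouse only that without WW replicate 21 called it (adjusted p = 0.0274, edgeR). Without WW replicates 18, 19 or 20 its adjusted p was 0.083, 0.158 and 0.142, and without NE replicates 2, 3, 4 or 5 it was 0.104, 0.0871, 0.203 and 0.0672 (edgeR). Of all genes, the fit without WW replicate 21 called 283 of 15380, and the other fits without 1 mouse called 0 to 11. In NW against WW, NE against NW and over all mice none of the 44 was called by edgeR.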

How the data were processed

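Whole-brain RNA-seq of 16 mice was used. The authors trimmed reads with Trimmomatic 0.32, aligned them with TopHat2 to GRCm38 and deposited raw counts per gene and FPKM from the Cufflinks tools, 1 column per mouse. The counting program and its strand setting are not given in the sources used here, and the kit is named as unstranded in the labels and as stranded in the paper. Rows with a repeated name (2 in each table) were summed.

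Counts were tested with edgeR 4.0.16 (R 4.3.3, quasi-likelihood test, TMM, default filter on low counts) in fits of the groups compared, in place of Cuffdiff2, which needs reads. Effects of ethanol, of nicotine and of their interaction were fitted over all 16 mice. P-values were adjusted (Benjamini-Hochberg) over all genes, with a threshold of 0.05. Standard errors (SE) are the size of the log2 change over the root of F. Normalized counts were scaled to TMM library sizes. Ratios and marker scores were compared by exact permutation tests, and correlations by 100000 permutations. In these tests on simulated counts for Water-Ethanol against WW, 91 of 100 genes changed by 1 and 70 of 100 changed by 0.4 on the log2 scale were called among 15240, with 7 false calls. For changes of 0.4 it was 54 in NW against WW, 61 in NE against WW and 43 for the interaction. It was 78 in NE against NW, 77 in NE against Water-Ethanol, and 86 and 80 for ethanol and nicotine over all mice. Each gene was drawn on its own, without the differences in tissue content between mice seen in these data. Each simulated table also held both sets of 100 changed genes, and many changed genes ease the Benjamini-Hochberg cutoff. The real fit of NE against Water-Ethanol called 0 genes, and Grin2b at 0.45 had an adjusted p of 0.298 there (edgeR). The simulated counts therefore do not tell how often a change of 0.4 in a single gene would be called in the real fits.

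Alternatives were RLE factors, DESeq2 1.42.0, a likelihood-ratio test, no filter on low counts or one of 1 CPM in 4 mice, limma 3.58.1 on log2(FPKM + 1) and log2(FPKM + 0.1), the granule neuron score as a covariate, a fit of all mice and leaving out each mouse. The forebrain and olfactory bulb scores as covariates, corrections for GC content and gene span (20 bins, gene models for 95.2% and 100% of genes) and leaving out the mice with low cerebellar or low olfactory bulb genes were added after seeing the data. The subunit genes, the partner and marker lists and the tests were chosen with earlier results of these data known. All 7 subunit genes are named, of the partner genes those called and the 2 of each role with the highest mean count, and the 3 genes most like each of Grin1, Grin2a, Grin2b and Grin2c, except 1 gene like Grin2b that is not reported here. Neto1 and Dlgap1 were named after their values were seen. The forebrain score was taken over 4 of its 6 listed markers, since the other 2 are not reported here, a choice made after its values were seen, and was not itself tested. The labels give no batch.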

Additional observations from a re-analysis of the deposited data

Results flagged for a closer look

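Among 32 sets of 4 mice (the 7 subunit genes and the Grin2b to Grin2a ratio in each group), 2 held a mouse far from the others by Dixon's test at the 95% level, which chance gives in about 1 of 20 sets. WW replicate 21 had 3064 normalized counts of Grin2b against 3673 to 3782 in the other WW mice. This was also the mouse with the lowest granule neuron score, and the part of that score in the Grin2b value was not tested in this mouse alone. NW replicate 11 had 2258 normalized counts of Grin3a against 2138 to 2150 in the other NW mice.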

How the results depend on the processing

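No paired analysis was possible because no mouse number occurs in more than 1 group. In Water-Ethanol against WW, 2 subunit genes (Grin2a and Grin2b) were called with DESeq2, with edgeR's likelihood-ratio test and with the granule neuron or the forebrain score as a covariate, and 0 with limma on log2(FPKM + 1), with limma on log2(FPKM + 0.1), in the fit of all 16 mice, with the olfactory bulb score as a covariate, and with the forebrain score as a covariate without WW replicate 21. Leaving out 1 mouse gave 0 to 2. Of all genes, the fits without 1 mouse called 0 to 797 and the other alternatives 0 to 733. In NE against Water-Ethanol, 1 subunit gene (Grin2b) was called with DESeq2, with the likelihood-ratio test and with no filter on low counts, and 0 to 1 with 1 mouse left out. The ethanol effect over all mice gave 0 to 1 with 1 mouse left out, in fits that called 280 to 899 of all genes. In NW against WW, NE against NW, NE against WW, the nicotine effect and the interaction no alternative called a subunit gene.

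For the Grin2b to Grin2a log2 ratio, group medians gave -0.12 in Water-Ethanol against WW and 0.19 in NE against Water-Ethanol (exact permutation tests, two-sided, p = 0.0571 each). With 1 mouse left out the differences were -0.16 to -0.10 and 0.16 to 0.22, and an exact permutation test of 3 against 4 mice cannot go below p = 0.0571. In NW against WW they were -0.030 to 0.047, changing sign.

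Signs that changed belonged to values that were never called. With the forebrain score as a covariate Grin2c and Grin3b in Water-Ethanol against WW were at -0.21 and -0.11 and Grin2c in the ethanol effect over all mice at -0.043. Without WW replicate 21 that fit gave -0.081 for Grin2c, -0.051 for Grin2d and -0.56 for Grin3b in Water-Ethanol against WW. Grin2b in NW against WW was at 0.0062 with the gene span correction and Grin2b in NE against WW at -0.018 with the granule neuron score as a covariate. With 1 mouse left out the log2 fold change ran from -0.043 to 0.0091 for Grin1 in Water-Ethanol against WW, from -0.12 to 0.038 for Grin2a and from -0.11 to 0.060 for Grin2b in NW against WW, from -0.099 to 0.046 for Grin2a and from -0.031 to 0.11 for Grin2b in NE against WW, and from -0.066 to 0.091 for Grin2a and from -0.027 to 0.15 for Grin2b in NE against NW. The causes were not tested. Of 248 values of single genes with 1 mouse left out, 219 kept their sign and their side of the threshold, and of 332 under other alternatives, 306 did. Depth limits Grin3b most, with 13.1 to 40.7 normalized counts per mouse.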
